A study of Mus musculus with 2 samples.

Results

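A group of 10 genes for interleukins and colony-stimulating factors that drive the growth of blood cells was followed in a mouse chondrocyte cell line made to overexpress HES1. The genes were chosen by name, with earlier results of these data known. They were the ligand genes Il15, Il7, Tslp, Il12a, Csf1, Il34, Csf2 and Csf3, and the receptor genes Il15ra and Csf1r. All 10 had a named probe on the array, among 20433 named genes in all, and 8 of the 10 passed the scanner's flag for signal well above background on 1 array or both, as did 14273 of all genes.

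The data came from 2 stable lines of ATDC5, a mouse line that is used as a model of cartilage cell differentiation. Both lines had been transduced with lentivirus, 1 to overexpress the control GFP, a green fluorescent protein, and 1 to overexpress HES1, a repressor of transcription that Notch signalling induces. Each was kept as a monolayer in 60 mm dishes for 3 days before total RNA was taken, and each RNA was hybridised to 1 single-colour Agilent array. No untransduced cells were analysed here, and the labels do not say whether a line was 1 clone or a pool, or from which promoter the transgenes were driven. With 1 array a group there was no replicate and no test. A difference is called by size, at 2-fold or more, and it compares these 2 arrays, not the conditions. The number of arrays limits the precision.

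Colony-stimulating factors and lymphoid-growth interleukins are secreted proteins that keep immune cells alive and make them divide. IL-15, IL-7 and TSLP act on lymphocytes and related cells through receptors that signal by JAK kinases and STAT factors. CSF1 and IL-34 are unlike in sequence but share a receptor, CSF1R, a tyrosine kinase on which macrophages and bone-resorbing osteoclasts depend. GM-CSF, encoded by Csf2, and G-CSF, encoded by Csf3, act on granulocytes and macrophages. In skeletal tissue, CSF1 from mesenchymal cells is a main support of osteoclast formation.

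A few facts of the arrays bear on all values. Signals are scanner intensities scaled so that both arrays had the same 75th percentile, 1057.2; they can be compared between arrays for a probe, not between probes. The lowest signal well above background was 38.1 (GFP array) and 39.0 (HES1 array), and 54.6% and 56.6% of the spots passed that flag. The error model of the scanner gave the log2 differences a median technical error of 0.20, which leaves out any difference between cultures. Hes1 itself had 1 probe, at 10.2 and 10.3, below the background flag on both arrays, and since the labels do not say which part of the gene the transgene holds, it checked neither label. Of 14 chondrocyte markers, the GFP array detected 10 and the HES1 array 9, among them Col2a1, Acan and Sox9. Of all 20433 named genes, 14273 were detected on 1 array or both. Except for Col9a1 (log2 difference 0.10), the detected markers read lower in the HES1 line, Col2a1 at -0.90. At 2-fold 0 were higher and 1 lower, against 11.1% and 4.95% of all genes. The lower marker, Sox6, was detected on the GFP array only and was at least 1.48-fold lower. Matn1, Matn3, Hapln1 and Snorc were not well above background on either. Of 6 osteoblast markers with a probe, 0 were higher and 3 lower at 2-fold. Of 6 fibroblast markers, 0 were higher and 0 lower.

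The promoter sequences of 4 of the 10 genes were at hand, as 6 entries of the RefSeq table of build GRCm38.p6, which spans 250 bases before a transcript start to 50 after it. Those of Csf1, Csf2 and Il15ra are shown, with matches to binding motifs in capitals. These genes had higher signal in the HES1 line, Il15ra just inside 2-fold by its main probe. Each line gives the 250 bases before a start, 5′ to 3′; Il15ra has 2 starts, and the last line gives 30 bases around a match after the second of them.
Csf1, chr3:107760470-107760719, minus strand: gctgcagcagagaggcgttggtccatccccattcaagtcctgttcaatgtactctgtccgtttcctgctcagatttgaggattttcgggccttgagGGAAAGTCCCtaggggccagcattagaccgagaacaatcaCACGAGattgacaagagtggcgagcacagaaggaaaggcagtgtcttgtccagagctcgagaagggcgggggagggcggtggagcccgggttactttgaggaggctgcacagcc
Csf2, chr11:54249900-54250149, minus strand: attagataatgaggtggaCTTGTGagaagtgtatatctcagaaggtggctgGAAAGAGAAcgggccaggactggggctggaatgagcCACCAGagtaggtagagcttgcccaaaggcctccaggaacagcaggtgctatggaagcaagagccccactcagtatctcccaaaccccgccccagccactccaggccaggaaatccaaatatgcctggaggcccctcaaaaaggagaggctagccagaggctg
Il15ra, chr2:11705043-11705292, plus strand: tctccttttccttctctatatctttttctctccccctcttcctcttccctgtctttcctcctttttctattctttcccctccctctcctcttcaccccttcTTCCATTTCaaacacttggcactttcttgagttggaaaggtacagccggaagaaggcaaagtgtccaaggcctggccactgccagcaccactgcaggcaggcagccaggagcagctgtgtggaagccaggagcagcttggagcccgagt
Il15ra, chr2:11705462-11705711, plus strand: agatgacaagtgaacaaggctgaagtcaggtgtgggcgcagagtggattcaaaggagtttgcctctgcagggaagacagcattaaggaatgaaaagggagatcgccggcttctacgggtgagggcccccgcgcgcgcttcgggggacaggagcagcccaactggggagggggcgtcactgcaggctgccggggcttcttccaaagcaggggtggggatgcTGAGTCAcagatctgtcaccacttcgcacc
Il15ra around its later start, chr2:11705732-11705761, plus strand: aagcaaaagcGAAAGCGAAtactccttagc

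The motifs searched on both strands were the interferon-response core GAAANNGAA, the STAT site TTCNNNGAA, the N box CACNAG and the class C site CACGNG of HES factors, the AP-1 site TGANTCA and the NF-kappaB consensus. The N box and the class C site overlap in the letters CACGAG. Of 32851 promoter windows in the table, 8.56% held the interferon-response core, 8.30% the STAT site, 42.5% an N box, 27.5% a class C site, 7.81% an AP-1 site and 8.46% an NF-kappaB match. The interferon-response core stood at +31 from the second start of Il15ra, as GAAAGCGAA. It also stood on the minus strand at -149 from the first start, and at -199 of Csf2. Csf1 held an NF-kappaB match on the minus strand at -154 and the letters CACGAG at -114, which count both as an N box and as a class C site. Csf2 held N boxes at -232 and -163, and Il15ra an AP-1 match at -30 from its second start and an N box at +2 from its first, past the bases shown. Il12a had N boxes at -246 and -59 from its second start and no match at its first. No STAT site was found in the 6 windows. A match describes letters only, within these short windows, and no binding was measured.

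Of the 8 genes that passed the background filter, 5 were at least 2-fold higher in the HES1 line (Il15, Il7, Tslp, Csf1 and Csf2) and 0 were lower, while Il15ra, Il34 and Csf1r stayed within 2-fold. Among all 14273 genes, 11.1% were higher by that measure and 4.95% were lower. Counting genes detected on a single array by their bound, 5 of the group were again higher, against 9.49% higher and 4.47% lower of all genes. The median log2 difference was 1.52 over the 8 genes and -0.06 over all genes. Because the group was chosen with earlier results of these data known, these contrasts describe it and are not independent support. A gene passes the filter if it is bright on either array, so genes high in the HES1 line alone enter through that difference, as Il15 and Csf2 did here. When only genes well above background on both arrays were kept, 3 of 6 were higher and 0 lower, against 7.04% higher and 4.41% lower of 13076 genes.

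**Figure D1:**
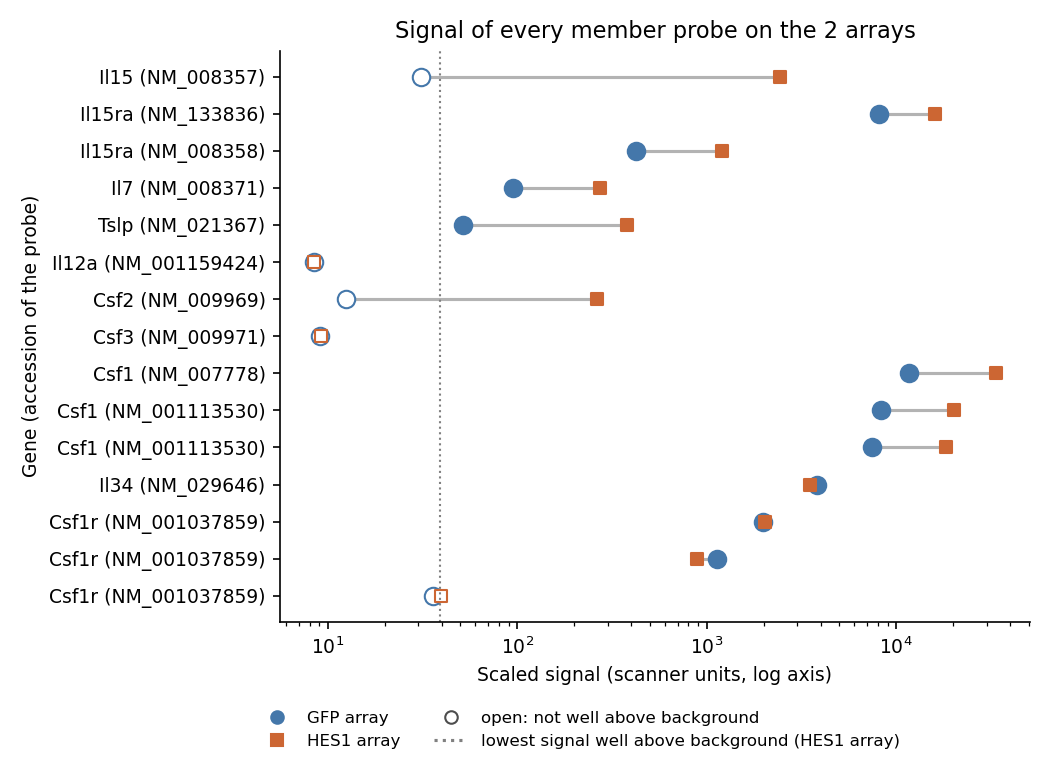
Scaled signal (scanner units, log axis) of each of the 15 probes of the 10 genes, with the GFP array as circles, the HES1 array as squares, open symbols where a probe was not well above background, and a dotted line at the lowest signal well above background on the HES1 array (39.0). Il15 and Csf2 cross that line between the arrays, and Csf3 and Il12a lie below it on both. Il34 and the brightest Csf1r probe hardly move. The second Csf1r probe reads 1137 and 885, and the third, open on both arrays, 36.0 and 39.4.

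Il15, the ligand that sustains natural killer cells and memory T cells, differed most. Its single probe read 31.0 on the GFP array, which was not well above background, and 2422 on the HES1 array. With the scanner's processed signals, Il15 was therefore at least 63.5-fold higher in the HES1 line, a bound of 5.99 on the log2 scale. This bound holds for that background correction only: under normexp, a different correction of the background, the log2 difference was 3.80.

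IL-15 is mostly shown to its target cells while bound to the receptor chain encoded by Il15ra, often on the same cell. Both Il15ra probes were higher in the HES1 line, by unlike amounts. The probe for accession NM_133836, the brighter, read 8141 in the GFP line and 15975 in the HES1 line, a 1.96-fold difference just inside the 2-fold limit. The probe for NM_008358 read 425 and 1206, a 2.84-fold difference. The limit therefore falls between the 2 probes of this gene, each with a technical error near 0.2 on its log2 difference.

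Il7 and Tslp encode related cytokines whose receptors share the chain IL-7Rα. Il7, needed for the development of T and B cells, read 95.0 in the GFP line and 274 in the HES1 line, 2.88-fold higher. Tslp, an epithelial and stromal cytokine that acts on dendritic cells, read 51.6 and 380, 7.35-fold higher. The GFP signal of Tslp was close to the lowest level that counts as above background, 38.1. The technical errors of the log2 differences, 0.25 for Il7 and 0.34 for Tslp, were above the median of all genes. Under a normexp background correction the log2 difference of Il7 was 0.78, inside the 2-fold limit, against 1.53 as reported, and that of Tslp was 1.25 against 2.88.

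Il12a, which encodes the p35 chain of IL-12 and of IL-35, did not pass the background flag, at 8.48 in the GFP line and 8.46 in the HES1 line. Its partner chain gene Il12b had no named probe. No fold is given for Il12a, which was not detectable with this probe.

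Csf1, the factor that macrophages and osteoclasts need, was well above background on both arrays by all 3 of its probes. The brightest, for NM_007778, was printed as 10 spots per array. These read from 11093 to 12576, with a median of 11639, on the GFP array, and from 31917 to 36193, with a median of 33310, on the HES1 array. Every spot on the HES1 array was above every spot on the GFP array. The difference was 2.85-fold, a log2 difference of 1.51, and the SD of the log2 difference between spots was 0.05. The other 2 probes, both for NM_001113530, gave 2.43-fold and 2.44-fold. Spots of 1 array share the RNA and the labelling, so their spread says nothing about cultures.

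Csf2, which encodes GM-CSF, a growth factor of granulocytes and macrophages, was seen in the HES1 line only. Its probe had 9 usable spots, from 7.58 to 21.1, with a median of 10.3, on the GFP array, none of them well above background. On the HES1 array they read from 221 to 304, with a median of 257, and all were well above background. The ranges did not overlap, and with the processed signals Csf2 was at least 6.90-fold higher in the HES1 line, a bound of 2.79 on the log2 scale. Under the normexp correction the log2 difference was 1.39, below that bound, so the bound holds for the processed signals only.

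**Figure D2:**
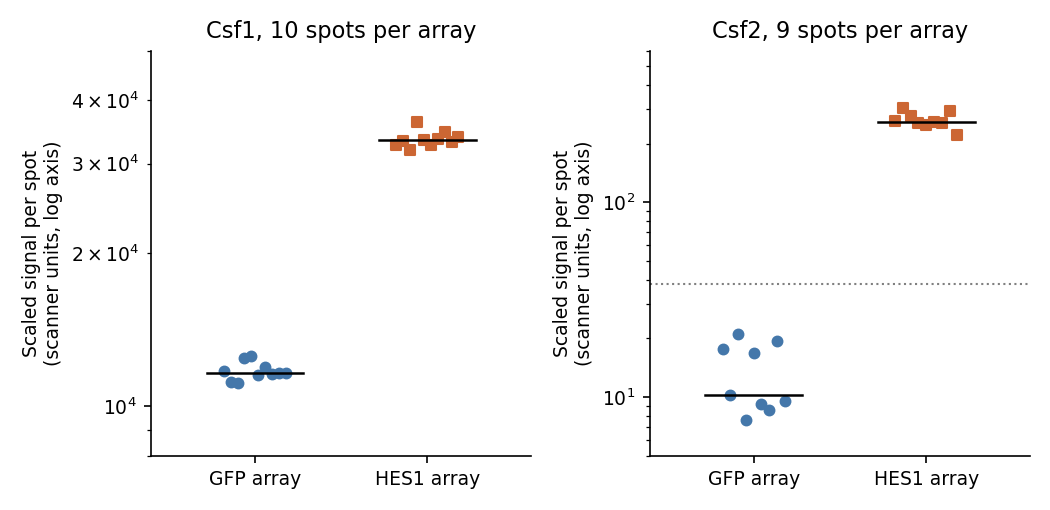
Scaled signal (scanner units, log axis) of every usable spot of the main Csf1 probe (left, 10 spots per array) and of the Csf2 probe (right, 9 spots per array), with the median as a black line and, for Csf2, the lowest signal well above background on the GFP array (38.1) dotted. The spots of the 2 arrays do not overlap for either gene, and all Csf2 spots of the GFP array lie below the dotted line.

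Csf3, which encodes the neutrophil growth factor G-CSF, read 9.10 and 9.14, not well above background on either array. Of the 3 classical colony-stimulating factors, Csf1 and Csf2 were therefore higher in the HES1 line while Csf3 was not detectable with this probe.

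Il34, the second ligand of the CSF1 receptor, stayed level while Csf1 was higher. Its probe read 3834 in the GFP line and 3512 in the HES1 line, a log2 difference of -0.13 that is smaller than its technical error of 0.20. The common receptor gene Csf1r read 1978 and 2030 by its brightest probe, a log2 difference of 0.04. A second Csf1r probe read 1137 and 885 (-0.36), and the third was below the background flag on both arrays, although all 3 are listed for the same accession. The probes thus disagree on whether Csf1r was detected.

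Csf1r marks macrophages, so markers of that type were read beside it. Of 11 macrophage and monocyte markers with a probe, the GFP array detected 3 and the HES1 array 5. Over all spots, 54.6% and 56.6% passed the flag. Adgre1, Lyz2, Tyrobp, Laptm5, Spi1 and Aif1 were not detected on either array. Their summed signal was 48603 in the GFP line and 25070 in the HES1 line, most of it from Itgam (47669 and 22759). At 2-fold 2 were higher in the HES1 line, Mpeg1 and Fcgr1, and 1 lower, Itgam (2.09-fold), against 11.1% and 4.95% of all genes. Both higher genes passed the flag on the HES1 array only. Mpeg1 read 40.8 and 1373, 33.6-fold by the signals as read, which is not a lower bound. Fcgr1 was at least 2.04-fold higher. The leukocyte genes Coro1a (119 and 766) and Cd52 (at least 4.01-fold, flagged on the HES1 array only) were also higher. The general leukocyte marker Ptprc read 25.2, not well above background, and 47.8. Of 10 markers of T and natural killer cells, 5 were well above background on each array, with summed signals of 6423 and 16298, and Lck went from 675 to 10478. Without Lck the sums were 5749 and 5821, and the other 4 detected markers had log2 differences from -0.14 to 0.19. The part of these genes in the differences above was not tested, and in RNA from whole cultures more cells of a type and more RNA per cell cannot be told apart.

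Other receptor chains of these factors were given as a list of 13. Of these, 8 were measured: 0 passed 2-fold upward and 2 downward, against 11.1% and 4.95% of all genes. The median log2 difference was 0.03. The lower pair was Csf2rb and Csf2rb2, which encode the signalling chain of the GM-CSF receptor and its close relative that serves IL-3. Csf2rb read 1536 in the GFP line and 442 in the HES1 line, 3.48-fold lower. Its second probe read 183 and 136, within 2-fold. Csf2rb2 read 901 and 224, 4.02-fold lower, and its second probe 354 and 132, 2.68-fold lower. The 2 genes are near-identical, so a probe may read both.

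The ligand-binding chain of the GM-CSF receptor, Csf2ra, went the other way, with 8592 and 12894, a log2 difference of 0.59. Crlf2, the TSLP receptor chain, read 20209 and 30412, likewise 0.59. The probe listed for Csf3r, the G-CSF receptor, read 153132 and 113932 (-0.43); whether this very bright probe reads that transcript was not tested. The IL-12 receptor chain Il12rb1 was at 0.44 and its partner Il12rb2 at -0.02 on the log2 scale. Il7r, the chain that both IL-7 and TSLP need, did not pass the background flag (8.19 and 8.25). Nor were Il2rb and Il2rg, which carry the signal of IL-15, Il2ra, or Ptprz1, a second receptor for IL-34. Sdc1, the syndecan that IL-34 can also bind, had a log2 difference of 0.08.

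Among 15 related growth factor genes, 14 had a probe and 7 passed the filter. In the HES1 line 3 of them were higher, 2 lower and 2 level at the 2-fold limit, and their median log2 difference was 0.19. Over all genes 11.1% were higher and 4.95% lower. Flt3l, which encodes the FLT3 ligand of early blood progenitors and dendritic cells, read 950 and 3324, 3.50-fold higher in the HES1 line. Kitl, the stem cell factor, read 252 and 691, 2.75-fold higher, and Il11 read 76.8 and 165, 2.15-fold higher. The lower pair, Il2 and Il3, was seen on the GFP array only, at 47.1 and 51.6; by bounds they were at least 1.21-fold and 1.32-fold lower, so neither passed 2-fold. Lif (66.6 and 69.1) and the IL-12 relative Il27 (501 and 573) stayed level.

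The kinases and STAT factors below these receptors mostly stayed within 2-fold. Of 14 signal transducers, 13 passed the filter, 1 of which was higher and 0 lower at 2-fold, against 11.1% and 4.95% of all genes. The median log2 difference was -0.34. Stat3 was the higher gene, at 6054 and 12367 over 9 spots per array, 2.04-fold, and its second probe gave 0.93 on the log2 scale, just inside the limit. Stat5a and Stat5b, the STAT factors that IL-7, IL-15 and GM-CSF use, had log2 differences of -0.76 and -0.38. Jak1 was at 0.03, Jak2 at -0.42 and Jak3 at 0.78.

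Of 13 genes that such receptors induce, 3 passed 2-fold upward (2 by bounds) and 0 downward, and the median was 0.65. Over all genes 11.1% were higher (9.49% by bounds) and 4.95% lower (4.47%). Ccnd2, a D-type cyclin, read 1241 and 8052, 6.49-fold higher. Socs1, a feedback inhibitor of JAK kinases, read 936 and 5301, 5.66-fold higher. Osm, encoding oncostatin M, was below the background flag in the GFP line and at least 1.34-fold higher. Cish, a target of STAT5, was level at 454 and 455, while Pim1 (0.99) and Myc (0.94) lay just inside 2-fold, and Bcl2 (-0.28) and Mcl1 (0.14) well inside it. Socs2 was at 0.84 by its main probe and at 1.15 by another. These genes also answer to other signals, and no receptor activity was measured.

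**Figure D3:**
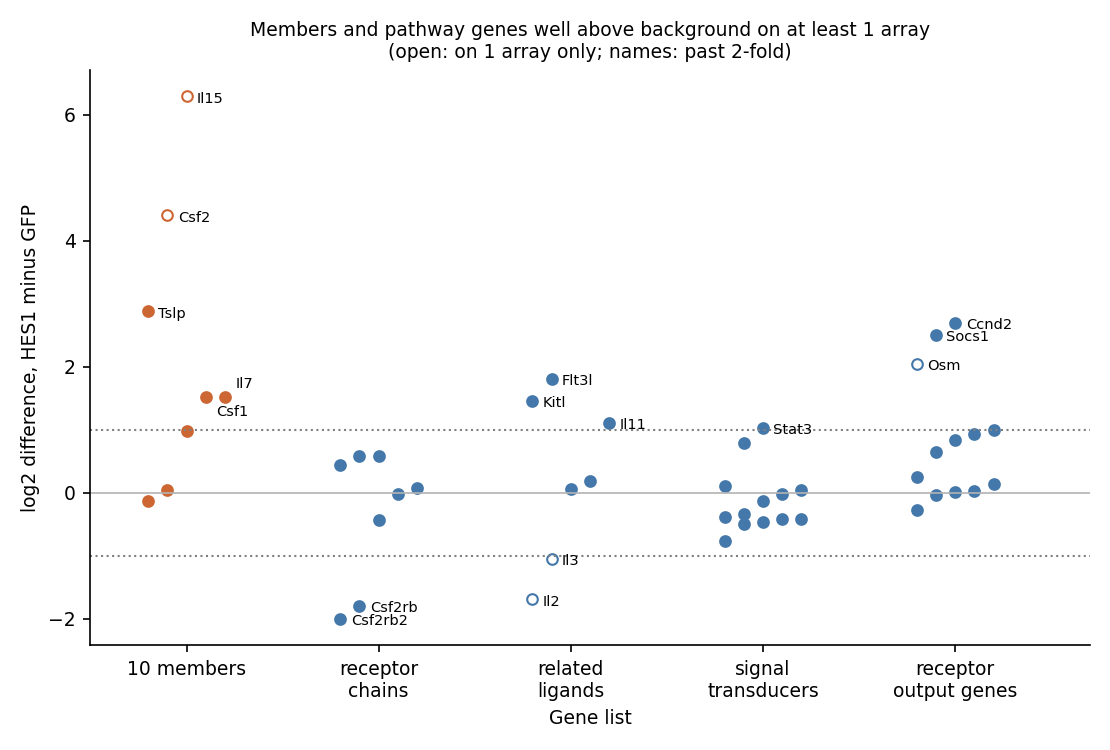
The log2 difference (HES1 minus GFP) of each gene well above background on at least 1 array, for the 10 growth factor and receptor genes (orange) and for 4 lists of pathway genes (blue), with open points for genes on 1 array only and dotted lines at 2-fold. Of the growth factor genes 5 lie above the upper line, with Il15 and Csf2 as open points whose heights rest on a GFP signal not well above background, and the receptor chains hold Csf2rb and Csf2rb2 below the lower line.

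The genes next to the 5 higher genes stayed within 2-fold where they were measured on both arrays. Most genes did so: of all 14273, 11984 were within 2-fold. For each of the 10 genes the nearest protein-coding gene on either side was taken from the RefSeq order of build GRCm38.p6, 20 genes in all, of which 17 were measured. Of these, 1 passed 2-fold upward and 2 downward, against 11.1% and 4.95% of all genes, and the median log2 difference was 0.06. Beside Il15 lay Inpp4b (0.48) and Zfp330 (0.36), and beside Tslp lay Gypc (0.57) and Wdr36 (0.38). Beside Csf1 Ahcyl1 was at -0.32, and beside Il7 Zc2hc1a was at 0.27. Csf2 lies between P4ha2 (-0.27) and Il3, which was seen on the GFP array only, as given above. The neighbour that was higher was 1110032F04Rik beside Il12a, below the background flag in the GFP line and at least 3.64-fold higher. The other lower neighbour was Mtss2 beside Il34, 2.01-fold lower.

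**Figure D4:**
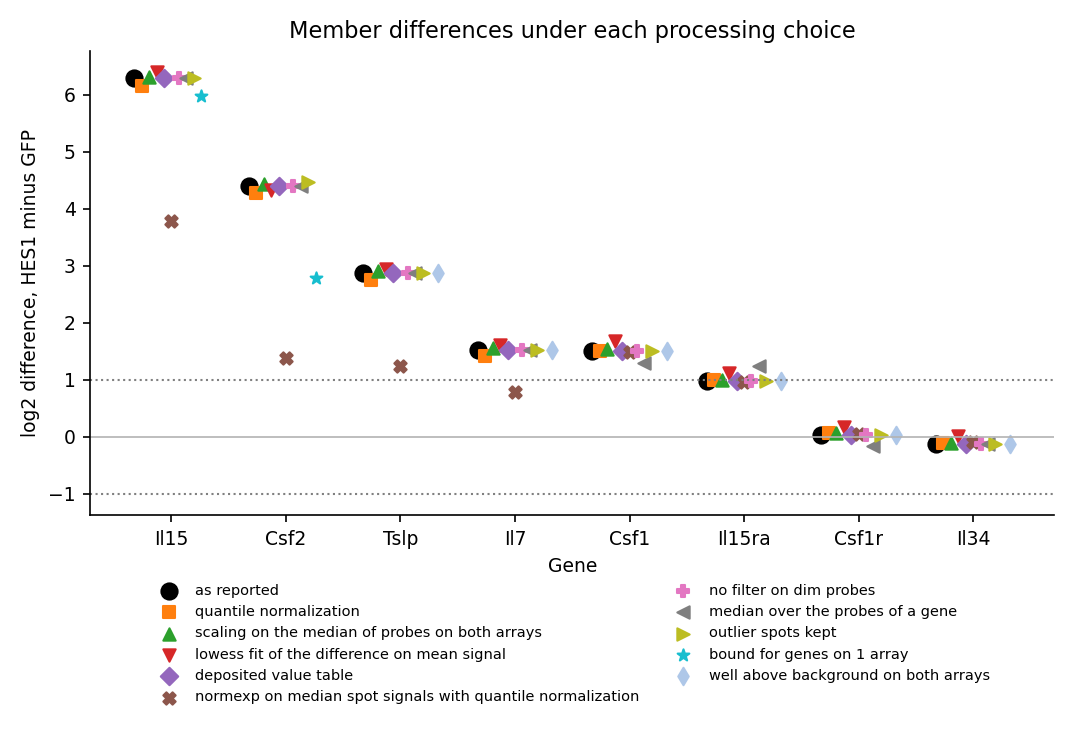
The log2 difference (HES1 minus GFP) of the 8 measured genes as reported (black) and under each alternative processing choice (coloured), with dotted lines at 2-fold. Il15, Csf2, Tslp and Csf1 stay above the upper line under every choice drawn, Il7 falls to 0.78 under normexp, and Il15ra lies at the line, from 0.96 to 1.24.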

How the data were processed

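Expression was measured on 2 Agilent single-colour mouse arrays, annotated on build mm9 per the file headers and, per the submitters' processing notes, quantified by version 10.10.1.1 of Agilent Feature Extraction. The deposited scanner files hold an intensity per spot, background-corrected and detrended by the scanner software, with no scaling between arrays. The deposited value table holds the same intensity times 1 factor per array (1.45 for GFP, 1.53 for HES1), on a linear scale, not centred, with medians of 67.7 and 76.6. Well-above-background and outlier flags (other values per spot) came from the deposited files.

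Here log2 of the processed signal was set to the 75th percentile of each array. Spots with an outlier flag of the spot or its background on either array were dropped (1053 of 59305), and 0 spots were saturated. The log2 values of repeated spots were averaged per probe (54948 probes, 26869 with a symbol through RefSeq accessions of GRCm38.p6, used for names and gene order only). A gene was its brightest probe well above background on at least 1 array. For a gene on 1 array the text gives a bound against the higher of the dim signal and the lowest signal well above background. The dim signal was the higher for Mpeg1 and Il33, so their bounds equal the measured difference. Some probes above that lowest signal failed the flag, so a bound is a convention and not a strict limit. No test was possible with 1 array per group. Calls and bounds were checked on simulated data. The simulation used a strict cutoff as the flag and no background correction. It therefore does not test the bounds for such probes or under normexp.

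All 10 genes of the group are named, and of the 4 pathway lists up to 4 genes past 2-fold each way. Other genes named beside them, and the neighbours, were added after values were seen. The members and lists were chosen with earlier results of these data known. Python 3.11.15, pandas 2.3.3, statsmodels 0.14.6, R 4.3.3 and limma 3.58.1 were used. Alternatives tried were a lowess fit (span 0.3), quantile normalization, scaling to the median of commonly detected probes, normexp (offset 50) on median spot signals, since the files used here hold no mean signal, other probe and spot filters, and other fold limits.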

Additional observations from a re-analysis of the deposited data

How the results depend on the processing

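No paired analysis was possible because each group had 1 array. The count of 5 higher genes of the group was 3 where both arrays had to be well above background and 3 at a 3-fold limit, and 4 to 6 under the other choices; no choice gave a lower gene. Under normexp the log2 differences were 3.80 for Il15, 1.39 for Csf2, 1.25 for Tslp and 0.78 for Il7, and the count over all genes was 850 higher (1582 as reported) and 339 lower (707). With bounds Csf2 was at 2.79. With the median over probes Il15ra was at 1.24 and Csf1 at 1.29. The pathway lists had 7 genes higher and 4 lower as reported: 14 higher at 1.5-fold and 4 at 3-fold, and 2 lower under normexp, with both arrays above background, and by bounds. Over all genes, 920 were higher with both arrays above background, 2480 higher and 2084 lower at 1.5-fold, and 997 and 178 at 3-fold. The lowess fit moved the median of all genes by 0.13; relative to that median, the median of the group was 1.57, against 1.58 as reported. The difference of Il34 was 0.02 under lowess and that of Csf1r ran from -0.16 to 0.18, inside 2-fold throughout. Low signal on the GFP array limits Il15 and Csf2, which were not well above background there, and Tslp, which was near the lowest such signal. The cause of these shifts was not tested.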

Other observations

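Other interleukin ligand genes on the array, taken by symbol after values had been seen, were mostly not detected. Of 28 besides the group above, 12 passed the background filter, with a median log2 difference of 0.38. In the HES1 line 4 were at least 2-fold higher (Il6, Il11, Il33 and Il17f) and 2 lower, Il2 and Il3, which were 0 by bounds. Over all genes 11.1% were higher and 4.95% lower. Il6 read 87.5 and 19729, well above background on both arrays and 225-fold higher, a larger difference than that of Il15. Il33, an alarm signal released by damaged barrier cells, read 40.0, not well above background, and 162. That is 4.04-fold higher by the signals as read, which is not a lower bound. Il17f read 25.3, not well above background, and 109, at least 2.85-fold higher. Il18, an inflammasome product, read 5391 and 7917, and Il16 read 174 and 107, both within 2-fold. Il1a, Il1b, Il10 and Il13 were not well above background on either array.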
